A study of Homo sapiens with 414 samples.

Results

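The 9 genes described here, HMOX1, NQO1, GCLM, GCLC, SLC7A11, TXNRD1, SRXN1, OSGIN1 and ME1, are textbook targets of the transcription factor NRF2. They were chosen by name, out of 19084 genes measured, and all 9 were among the 16318 genes that reached 1 TPM (transcript share of the library, adjusted for transcript length) in at least 5 of 414 libraries. In cells at rest the adaptor protein KEAP1 holds NRF2 (gene name NFE2L2) and passes it to a ubiquitin ligase, so that it is degraded. Electrophiles, arsenite and other agents that modify cysteines of KEAP1 let NRF2 accumulate, enter the nucleus and bind, with a small MAF protein, to antioxidant response elements in its target genes. The targets make glutathione, reduce thioredoxin and quinones, break down heme and supply NADPH. In neural tissue the pathway is best known in astrocytes, whose glutathione output protects neighbouring neurons.

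The libraries were RNA-seq of H1-NPC, neural progenitor cells derived from H1, a human embryonic stem cell line, kept in 2D culture in multiwell plates and exposed to 1 compound each. All cultures share this single line, so no other genetic background was sampled. The toxic class held 29 compounds and 266 libraries. The non-toxic class held 16 compounds and the remaining libraries, 79 of them on days 1 to 6 and 69 later (Acetaminophen, Amoxicillin, Aspirin, DMSO, Ficoll, Fructose, Glucosamine, Glycerol, Glyphosate, Ibuprofen, Naproxen sodium, PEG, PVP, Saccharin, Sorbitol and Sucrose). Cultures were lysed on 11 days between day 1 and day 39, with 1 library for each compound and day. The toxic compounds the results turn on were Arsenic at 5 µM, Cadmium at 50 µM, Okadaic acid at 3 nM, Lead acetate at 30 µM, Busulfan at 50 µg/ml, Cytosine Beta-D-arabinofuranoside at 5 µM, K252a at 30 nM, 5-Fluorouracil at 10 µM, Vincristine at 1 nM, Hydroxyurea at 250 µM and PD166866 at 2.5 µM. Others named below were Dexamethasone at 100 µM, U0126 at 10 µM, Bis-I at 4 µM, (trans) Retinoic acid at 1.7 µM, Accutane or Isotretinoin at 0.5 µg/ml, Monosodium glutamate at 150 µM and Maneb at 60 µM. Under the remaining 11 no member was called on days 1 to 6: 2-Imidazolidinethione at 0.4 mM, Amiodarone at 1 µg/ml, Benzene at 50 µg/ml, Bioallethrin at 10 nM, Carbamazepine at 10 µg/ml, Diazinon at 10 µM, Dioxin at 3 nM, L-phenylalanine at 1 mM, Permethrin at 2.5 µM, Propylthiouracil at 25 µg/ml and Thalidomide at 100 ng/ml. A compound's difference is the mean, over its days, of log2(TPM + 1) minus that of the non-toxic libraries of the same day. Days 1, 2, 3, 4 and 6 (28 toxic compounds with 5 libraries each, and Maneb with day 1 alone) were analysed apart from days 8, 10, 15, 21, 27 and 39 (21 toxic compounds). The days of a compound serve as its replicates. In the tests against non-toxic cultures, the spread behind a p-value is pooled over the compound's libraries and the same-day non-toxic libraries. Most of these libraries are non-toxic, so p-values do not measure the spread between a toxic compound's own days. A gene is called at a limma adjusted p under 0.05.

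The non-toxic cultures carried neural progenitor markers, as their label implies, and also neuron and mesenchymal markers. On days 1 to 6 the median levels of progenitor markers ran from 12.2 TPM in PAX6 to 1444 TPM in NES, with SOX2 at 258 TPM. The neuron gene TUBB3 was at 2699 TPM, and the mesenchymal genes COL1A1 and COL3A1 were at 243.5 and 235 TPM. The astrocyte gene GFAP was at 1.94 TPM, against 3657 TPM on day 39. The number of genes at 1 TPM or more ranged over the libraries from 11377 to 17188. The libraries of Maneb on day 1, Monosodium glutamate on day 1 and Vincristine on day 4 stood apart from the rest, and member counts under Vincristine and Monosodium glutamate are given with and without them. Maneb has no other library. The Vincristine day 4 library had 235 TPM in summed pluripotent markers (POU5F1 and NANOG), against at most 4.53 TPM in any non-toxic library of days 1 to 6. Among the controls, Ibuprofen on day 8 stood apart, and late counts are also given without it. Toxic libraries of day 21 stood apart in their trend with transcript length, with a median slope of -0.188 log2 units per doubling of length, against 0.002 in non-toxic libraries of that day. On day 15 the median slopes were -0.063 in toxic and 0 in non-toxic libraries.

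Promoter sequence is shown for 4 members: 3 whose windows held a match described below, and GCLC, which held none and had the smallest range. Each window is the 250 bases before a gene's start in RefSeq, on build GRCh38.p14, written 5′ to 3′ on the gene's own strand. RefSeq windows were matched for 7 of the 9 members. The core of the antioxidant response element, TGACNNNGC, was searched on both strands and its matches are in capitals. The GCLM window (chr1:93909431-93909680, minus strand) held 1 match, on the reverse strand, 34 bases before the start. The ME1 window (chr6:83431052-83431301, minus strand) held 1 match on the forward strand, 137 bases before the start. The window of the first of the TXNRD1 starts (chr12:104215529-104215778, plus strand) held 1 match on the forward strand, 99 bases before the start. The GCLC window (chr6:53545102-53545351, minus strand) held none.
GCLM: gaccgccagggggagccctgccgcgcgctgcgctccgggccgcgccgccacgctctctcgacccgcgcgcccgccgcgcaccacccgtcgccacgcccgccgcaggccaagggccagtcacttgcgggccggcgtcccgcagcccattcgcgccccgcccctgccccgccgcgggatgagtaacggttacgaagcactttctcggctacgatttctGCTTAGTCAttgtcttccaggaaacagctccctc
ME1: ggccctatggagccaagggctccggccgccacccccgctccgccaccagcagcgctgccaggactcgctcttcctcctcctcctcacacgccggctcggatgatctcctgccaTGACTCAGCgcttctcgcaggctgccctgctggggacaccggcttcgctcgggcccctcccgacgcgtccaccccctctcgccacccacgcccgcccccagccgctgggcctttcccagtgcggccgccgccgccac
TXNRD1: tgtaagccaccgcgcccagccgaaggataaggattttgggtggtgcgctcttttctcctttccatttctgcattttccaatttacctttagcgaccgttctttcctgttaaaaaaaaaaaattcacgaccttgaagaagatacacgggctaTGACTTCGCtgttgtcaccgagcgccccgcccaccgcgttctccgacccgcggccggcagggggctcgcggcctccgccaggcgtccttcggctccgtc
GCLC: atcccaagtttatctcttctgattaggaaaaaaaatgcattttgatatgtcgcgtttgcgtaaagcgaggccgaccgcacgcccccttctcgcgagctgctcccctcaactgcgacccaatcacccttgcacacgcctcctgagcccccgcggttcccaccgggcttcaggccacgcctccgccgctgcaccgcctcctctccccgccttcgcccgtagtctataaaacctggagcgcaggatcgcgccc
The second TXNRD1 window also held a match, and those of NQO1, SRXN1 and OSGIN1 held none. Over the toxic compounds on days 1 to 6, the SD of compound means was 1.35 in NQO1, 1.31 in OSGIN1 and 0.86 in SRXN1. It was 1.21 in ME1, 0.79 in GCLM and 0.58 in TXNRD1, which held a match, and 0.27 in GCLC, which held none. A link between a match and the size of a response was not tested. Of all 35116 windows of this length, 10.9% held the motif. A match is a run of letters and not a measured binding site, and NRF2 elements may also lie outside these windows.

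Over days 1 to 6 the 9 genes rose widely under a minority of the toxic compounds. Of the pairs of 9 genes and 28 compounds, 99 were called higher and 23 lower than in non-toxic cultures. Among all pairs of a tested gene and a toxic compound, 13.6% were called higher and 19.3% lower. At least 1 member was called under 17 of the 28 compounds. Ranked by the mean log2 difference of the 9 genes, Arsenic came first at 4.31, followed by Cadmium at 2.76, Okadaic acid at 2.15, Lead acetate at 1.33, Busulfan at 1.17, Cytosine Beta-D-arabinofuranoside at 1.11 and K252a at 1.01. At the other end stood (trans) Retinoic acid at -0.24, Monosodium glutamate at -0.30 and Accutane or Isotretinoin at -0.31. The place of Monosodium glutamate rests on its day 1 library, without which its mean was -0.02 and none of its members was called. The mean under Vincristine was 0.50, and 0.34 without its day 4 library.

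**Figure D1:**
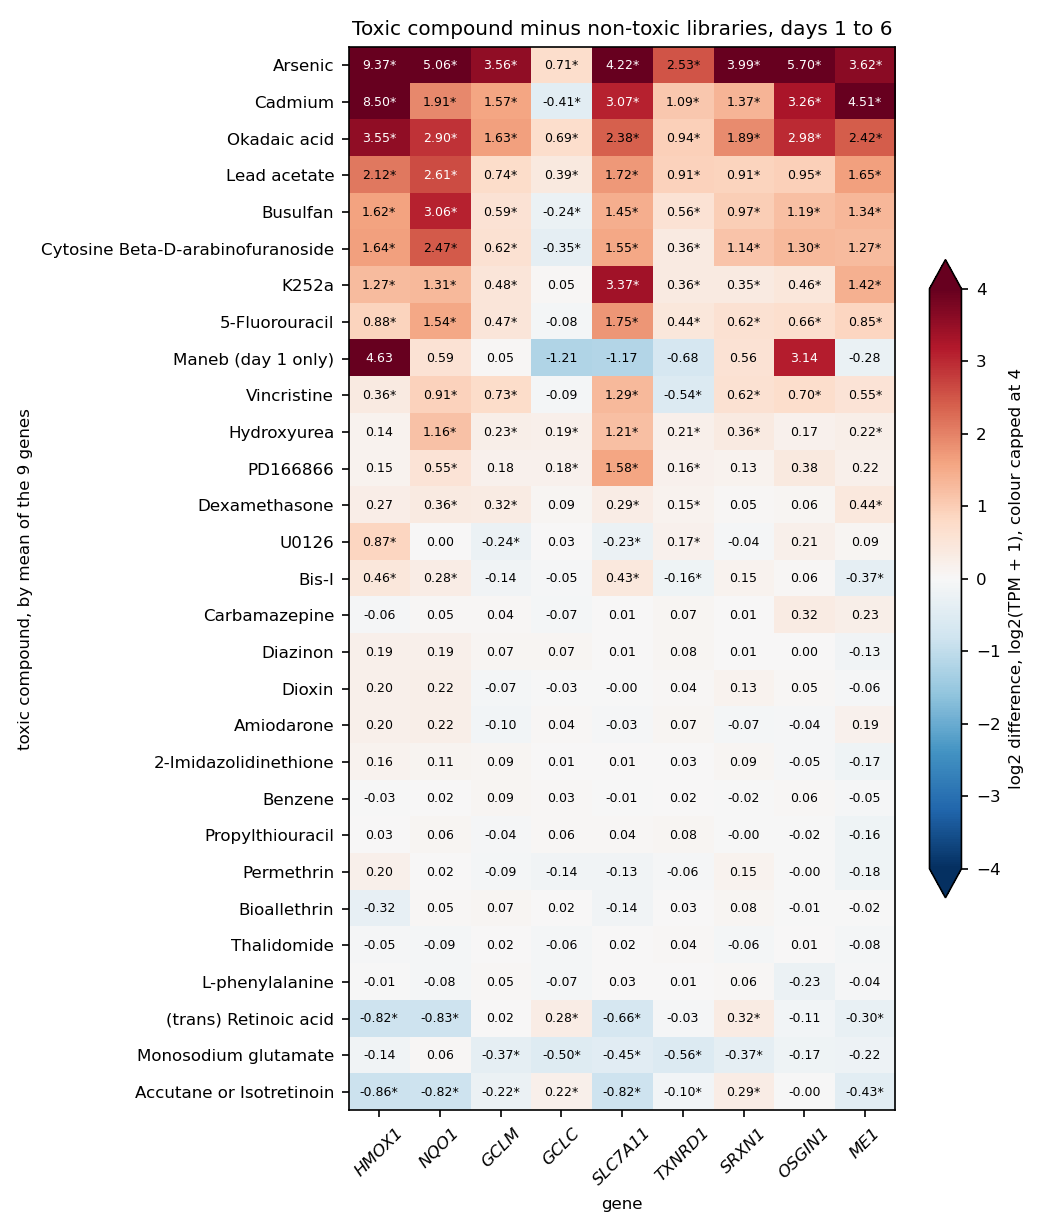
Log2 difference of each NRF2 target (columns) from same-day non-toxic cultures under each of 29 toxic compounds (rows, ranked by the mean over the 9 genes), averaged over days 1 to 6. The colour scale stops at 4 in either direction, stars mark limma adjusted p under 0.05, and Maneb has day 1 alone and no test. Arsenic, at a mean of 4.31, heads the ranking and the 2 retinoids stand near its foot.

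All 9 members were called higher under Arsenic, where 34.8% of genes tested were called higher. Under Okadaic acid and under Lead acetate all 9 were also called higher, against 35.1% and 17% of genes tested. Under Cadmium 8 were called higher and GCLC lower. The background there was 24.6% of genes higher and 59.4% lower, and the median of all genes lay at -0.40 on the log2 scale. Every Arsenic library lay above the highest non-toxic library of its day for all 9 members, a pattern that 13.9% of genes tested showed. The same held for 8 members under Cadmium (10.3% of genes tested), for 7 under Okadaic acid (12.2%) and for 7 under Lead acetate (3.11%). GCLC was the exception under Cadmium. GCLM and OSGIN1 were the exceptions under Okadaic acid, on day 1, and under Lead acetate, on days 4 and 6.

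HMOX1, the inducible heme oxygenase that opens heme and releases biliverdin, iron and carbon monoxide, showed the widest range of the 9. Under Arsenic it stood at 8252, 4077, 3290, 2806 and 4036 TPM on days 1, 2, 3, 4 and 6. Under Cadmium it stood at 3056, 2408, 1971, 1596 and 2729 TPM on the same days. The 79 non-toxic libraries of these days lay between 2.47 and 10.9 TPM, with a median of 5.34 TPM. No library of either metal came near that range, and on day 1 under Arsenic HMOX1 had the 6th highest TPM of all genes in the library. The level averaged 4492 ± 2169 TPM under Arsenic (SD, n = 5) and 5.51 ± 1.17 TPM over the non-toxic day means, a log2 difference of 9.37 (SE 0.15, adjusted p = 6.77e-68). Under Cadmium it averaged 2352 ± 583 TPM (SD, n = 5), a log2 difference of 8.50 (SE 0.14, adjusted p = 3.04e-68). The cultures are bulk samples, in which fewer cells of a type and less RNA per cell cannot be told apart.

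HMOX1 was also higher under 9 further compounds, at a far lower level. Under Okadaic acid, an inhibitor of protein phosphatases, it stood at 26.3, 61.2, 106, 122 and 98.6 TPM on days 1 to 6, a log2 difference of 3.55 (SE 0.15, adjusted p = 3.73e-36). Under Lead acetate the values were 48.8, 21.0, 37.5, 13.2 and 25.0 TPM, a log2 difference of 2.12 (SE 0.16, adjusted p = 7.13e-20). All libraries of both compounds lay above the non-toxic maximum of their day. Busulfan, an alkylating agent, and Cytosine Beta-D-arabinofuranoside, a nucleoside analog, gave log2 differences of 1.62 and 1.64 in HMOX1. Under Busulfan it stood at 9.79 TPM on day 1 and 25.4 TPM on day 6. HMOX1 was lower under Accutane or Isotretinoin (log2 difference -0.86) and (trans) Retinoic acid (-0.82).

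NQO1, a quinone reductase that uses NADPH or NADH, was called higher under 13 compounds and lower under 2, the retinoids. In non-toxic cultures it fell over time, with day means of 36.1 ± 2.20 TPM on day 1 (SD, n = 16) and 9.11 ± 1.28 TPM on day 6 (SD, n = 15). Under Arsenic it did not follow that course and stood at 457, 515, 549, 508 and 567 TPM. All 5 values lay above 40.4 TPM, the highest value of any non-toxic library of days 1 to 6. The log2 difference was 5.06 (SE 0.12, adjusted p = 2.43e-55). NQO1 was the member with the largest difference under Busulfan (3.06, SE 0.13, adjusted p = 5.83e-35), Lead acetate (2.61, SE 0.12, adjusted p = 5.33e-31) and Cytosine Beta-D-arabinofuranoside (2.47, SE 0.14, adjusted p = 6.31e-29). Busulfan cultures held 101, 122, 187, 154 and 99.7 TPM. Lead acetate cultures held 229, 159, 173, 41.6 and 26.6 TPM, each above the non-toxic maximum of its day. Okadaic acid gave 2.90 and Cadmium 1.91.

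SLC7A11, the cystine transporter chain that brings in the amino acid limiting for glutathione, was called higher under 13 compounds and lower under 4. Under Arsenic it stood at 238, 182, 124, 69.5 and 65.9 TPM, against non-toxic day means of 13.3 ± 1.04 TPM on day 1 (SD, n = 16) and 2.55 ± 0.53 TPM on day 6 (SD, n = 15). The log2 difference was 4.22 (SE 0.07, adjusted p = 3.73e-65). SLC7A11 was the leading member under K252a, a kinase inhibitor, at 101, 81.4, 57.2, 39.7 and 65.2 TPM. All 5 K252a libraries lay above every non-toxic library of days 1 to 6, the highest of which was at 15.2 TPM. The log2 difference under K252a was 3.37 (SE 0.09, adjusted p = 1.45e-50). It was 3.07 under Cadmium and 2.38 under Okadaic acid, and these compounds were not tested against each other. It also led under 5-Fluorouracil (1.75), PD166866 (1.58), Vincristine (1.29) and Hydroxyurea (1.21). Under PD166866, an inhibitor of fibroblast growth factor receptors, the other called members differed by at most 0.55.

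GCLC and GCLM encode the catalytic and the modifier subunit of glutamate-cysteine ligase, the first enzyme of glutathione synthesis, and they did not move together. GCLM under Arsenic stood at 223, 127, 94.7, 71.0 and 87.4 TPM, against 8.64 ± 1.23 TPM over the non-toxic day means, a log2 difference of 3.56 (SE 0.10, adjusted p = 2.68e-51). GCLC under Arsenic stood at 38.0, 35.5, 27.9, 21.6 and 26.7 TPM, against 17.8 ± 2.23 TPM, a log2 difference of 0.71 (SE 0.06, adjusted p = 3.55e-19). Both subunits were above every same-day non-toxic library, GCLM by far more. Under Okadaic acid the differences were 1.63 for GCLM and 0.69 for GCLC, and under Lead acetate 0.74 and 0.39. Under Cadmium GCLM was higher by 1.57 (SE 0.11, adjusted p = 6.36e-24), at 54.5, 28.7, 21.6, 12.7 and 34.1 TPM. GCLC under Cadmium was at 11.7, 11.1, 12.6, 14.1 and 16.1 TPM, a log2 difference of -0.41 (SE 0.06, adjusted p = 1.18e-08). That direction depends on scale: with each library centred on its median, GCLC under Cadmium was higher by 0.26 (adjusted p = 9.32e-06). Here and below, the median used for centring is over genes with a non-toxic mean of at least 10 TPM. GCLC was also called lower under Busulfan (-0.24) and Cytosine Beta-D-arabinofuranoside (-0.35), 2 of the compounds under which the other 8 members were called higher. Busulfan had 29.5% of genes higher and 35.1% lower, and Cytosine Beta-D-arabinofuranoside 40.9% higher and 27.2% lower.

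TXNRD1, the cytosolic thioredoxin reductase, was the most abundant member in non-toxic cultures at a median of 113 TPM on days 1 to 6. Under Arsenic it stood at 1692, 939, 528, 401 and 375 TPM, a log2 difference of 2.53 (SE 0.08, adjusted p = 7.80e-45). SRXN1, sulfiredoxin, which repairs overoxidised peroxiredoxins, stood at 927, 302, 175, 131 and 96.8 TPM under Arsenic. The SRXN1 difference was 3.99 (SE 0.13, adjusted p = 2.88e-46), against non-toxic day means of 13.6 ± 2.36 TPM. Both genes were highest on day 1 and lowest on day 6 under Arsenic, with no overlap with same-day non-toxic cultures. Okadaic acid raised SRXN1 by 1.89 and TXNRD1 by 0.94, Cadmium by 1.37 and 1.09, and Lead acetate by 0.91 each. TXNRD1 was called in 16 of the 28 compounds, 12 higher and 4 lower, and SRXN1 in 13, 12 higher and 1 lower.

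OSGIN1, an oxidative stress-induced growth inhibitor, was the least abundant member and had no call of lower under any compound. It lay between 0 and 1.37 TPM in non-toxic libraries of days 1 to 6, so its differences on the log2(TPM + 1) scale understate the change in level. Under Arsenic it stood at 450.0, 107, 51.2, 39.2 and 26.8 TPM, a log2 difference of 5.70 (SE 0.22, adjusted p = 1.08e-39). Under Cadmium it stood at 15.0, 10.6, 10.9, 12.7 and 19.7 TPM, a log2 difference of 3.26 (SE 0.15, adjusted p = 1.08e-35). Under Okadaic acid OSGIN1 was at 0.75 TPM on day 1, inside the non-toxic range, and at 7.34, 19.7, 27.9 and 26 TPM afterwards (log2 difference 2.98). Under K252a the call (0.46) rested on 3.75 TPM on day 1, and without that day the difference was 0.16 (adjusted p = 0.517).

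ME1, malic enzyme, which makes NADPH in the cytosol, was the only member higher under Cadmium than under Arsenic. It stood at 215, 164, 129, 84.3 and 112 TPM under Cadmium, a log2 difference from non-toxic cultures of 4.51 (SE 0.10, adjusted p = 1.63e-57). Under Arsenic it stood at 144, 83.8, 63.2, 56.9 and 43.9 TPM, a log2 difference of 3.62 (SE 0.10, adjusted p = 4.53e-50). The highest non-toxic library of days 1 to 6 had 9.14 TPM, below every library of either metal. ME1 differed by 2.42 under Okadaic acid, 1.65 under Lead acetate and 1.42 under K252a.

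Cadmium at 50 µM and Arsenic at 5 µM differ in dose, so the direct contrast is of these cultures and not of the metals at a matched dose. Relative to Arsenic, Cadmium had 8 members lower and ME1 higher in limma on the 5 days of each, where 31.8% of genes tested were lower and 15.7% higher. The gap was widest in NQO1, by -3.15 on the log2 scale (SE 0.23, adjusted p = 0.000101), then SRXN1 by -2.63 (SE 0.35, adjusted p = 0.000831), OSGIN1 by -2.43 (SE 0.54, adjusted p = 0.00775) and GCLM by -1.99 (SE 0.16, adjusted p = 0.000158). It was narrowest in HMOX1, by -0.86 (SE 0.15, adjusted p = 0.0024), and with libraries centred on their medians that difference was -0.53 and was not called (adjusted p = 0.06). ME1 was higher in Cadmium by 0.89 (SE 0.14, adjusted p = 0.00182). NQO1 under Cadmium stood at 55.9, 55.8, 39.2, 39.5 and 129 TPM.

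**Figure D2:**
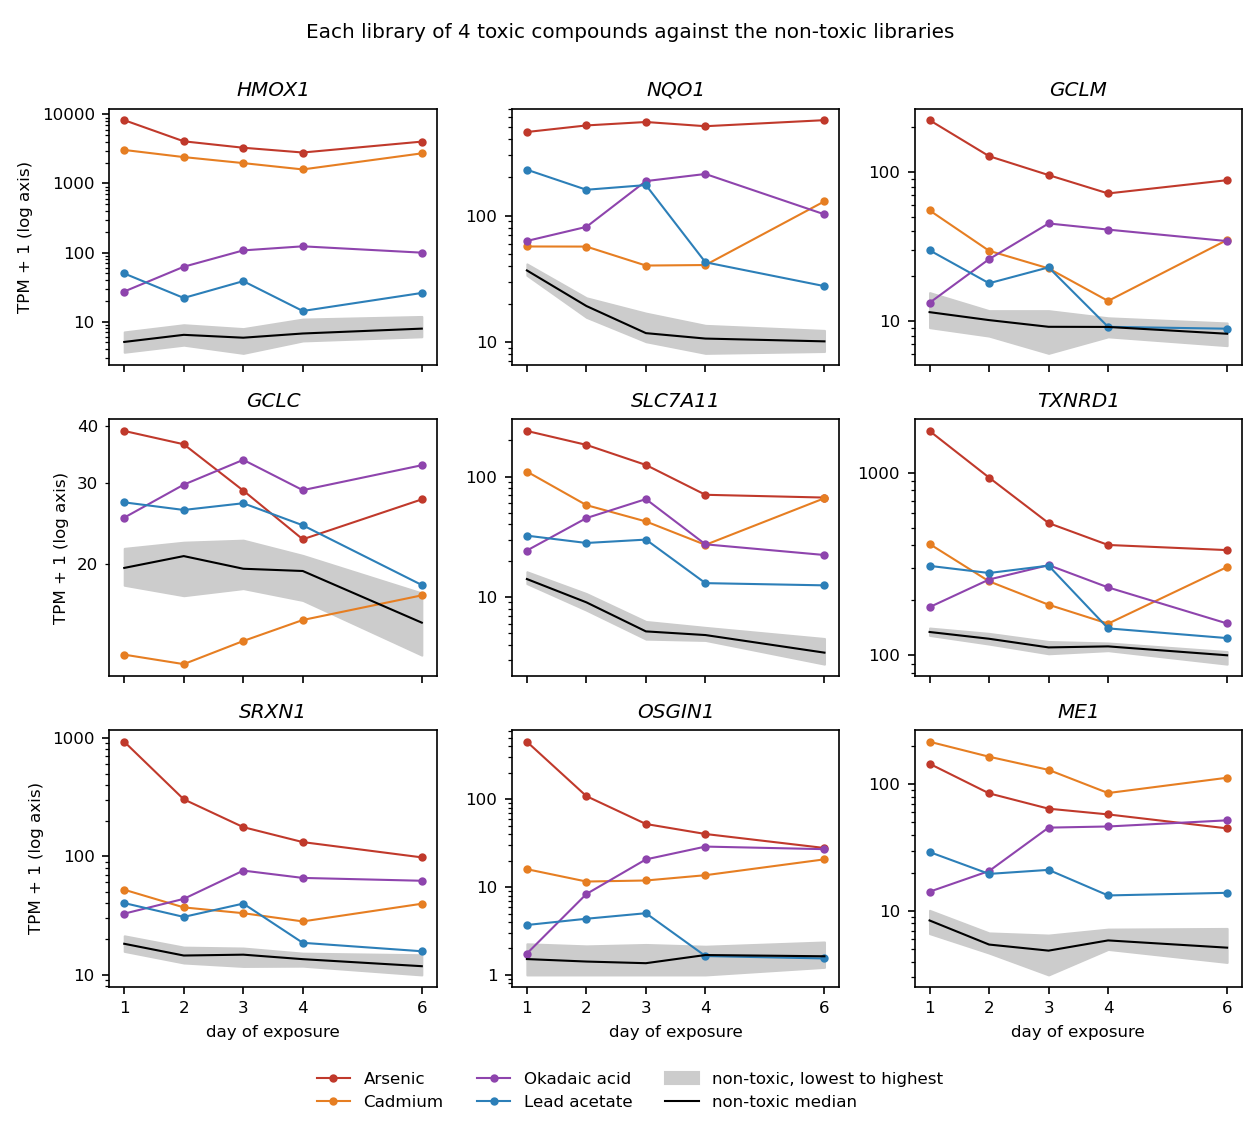
TPM + 1 (log axis) of each of the 9 genes on days 1 to 6 under Arsenic, Cadmium, Okadaic acid and Lead acetate (coloured lines, 1 library per point), with the range of the non-toxic libraries of each day as a grey band and their median in black. HMOX1 under Arsenic and Cadmium lies between 1596 and 8252 TPM, far above the band, and GCLC stays close to it.

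The course over days 1 to 6 differed between compounds. Slopes are given in log2 units of difference from same-day non-toxic cultures per doubling of the day. Of the same pairs, 77 had a called slope, 51 rising and 26 falling, against 20.7% of all pairs of a gene and a compound. This count rests in part on day 1, without which it was 45. Under Arsenic the difference shrank in 6 members, where 28.2% of genes had a called negative slope. The slope was -1.63 in OSGIN1 (SE 0.16, adjusted p = 1.42e-15), -1.05 in SRXN1, -0.74 in TXNRD1 and -0.70 in HMOX1. In NQO1 the slope was 0.88 (SE 0.09, adjusted p = 2.77e-15), with a non-toxic level that fell over the same days. Under Okadaic acid the difference grew in 8 members, where 28.6% of genes had a positive slope, with slopes of 1.58 in OSGIN1, 1.25 in NQO1 and 1.05 in ME1. TXNRD1 was the exception under Okadaic acid, at 0.10 (adjusted p = 0.0866). Under Lead acetate it shrank in 6 members, where 4.52% of genes had a negative slope, with slopes of -0.65 in HMOX1 and -0.61 in OSGIN1. Under Cytosine Beta-D-arabinofuranoside and under 5-Fluorouracil 8 members each had a called positive slope, against 23.2% and 27.3% of genes. Under Cytosine Beta-D-arabinofuranoside they included GCLC (slope 0.14), which was called lower over these days, so its difference shrank.

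The compounds of middle rank raised part of the set. K252a had 8 members higher, where 15.2% of genes were higher, and 5-Fluorouracil had 8, where 35.5% were. Hydroxyurea, an inhibitor of ribonucleotide reductase, had 7 higher (29.7% of genes), led by SLC7A11 at 1.21 and NQO1 at 1.16, with HMOX1 at 0.14 (adjusted p = 0.394). PD166866 had 4 higher (12% of genes). Dexamethasone, a glucocorticoid, had 5 higher by 0.15 to 0.44, against 6.01% of genes. U0126, an inhibitor of the kinase MEK, had 2 higher and 2 lower, and HMOX1 led at 0.87 with 8.73, 12.4, 9.96, 11.4 and 10.5 TPM. Under Bis-I 3 were higher and 2 lower, the widest being HMOX1 at 0.46. The share of genes called in either direction was 32.3% under U0126 and 34.7% under Bis-I.

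Vincristine and Monosodium glutamate had calls that were lost or turned without the libraries that stood apart. Vincristine, which binds tubulin, had 7 members higher and TXNRD1 lower, where 33.1% of genes were higher and 37.9% lower. TXNRD1 under Vincristine was at 138, 118, 100.1, 9.65 and 174 TPM, and only day 4 lay far below the rest. Its log2 difference was -0.54 with all libraries and 0.17 without day 4 of Vincristine and day 1 of Monosodium glutamate. Without them SLC7A11 (0.95), NQO1 (0.58), ME1 (0.43) and SRXN1 (0.38) were still called higher under Vincristine, and GCLM, HMOX1 and OSGIN1 were not. Monosodium glutamate had 5 members lower, where 51.3% of genes were lower, and TXNRD1 was at 16.7 TPM on day 1 and at 98.2 TPM or more on each later day. Without those libraries none of the 5 was called under Monosodium glutamate, and TXNRD1 differed by 0.03 (adjusted p = 0.771). Maneb, a dithiocarbamate fungicide with a single library on day 1, had HMOX1 at 124 TPM, against 4.11 ± 0.75 TPM in non-toxic cultures (SD, n = 16), and OSGIN1 at 12.2 TPM, against 0.54 ± 0.33 TPM. These 2 members were over 1 log2 unit higher (2.56% of genes tested), and GCLC at 7.56 TPM and SLC7A11 at 5.31 TPM were over 1 lower (51.2% of genes tested). There is no replicate of Maneb, and the median of all genes lay at -1.04 in that library.

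The 2 retinoids lowered part of the set and raised another. Their doses are labelled in different units, 1.7 µM for (trans) Retinoic acid and 0.5 µg/ml for Accutane or Isotretinoin, a cis isomer of retinoic acid, so their values are given side by side. HMOX1 stood at 3.32, 4.36, 1.59, 2.48 and 1.81 TPM under (trans) Retinoic acid and at 3.74, 3.16, 2.40, 2.74 and 1.01 TPM under Accutane or Isotretinoin. NQO1 differed by -0.83 and -0.82, and SLC7A11 by -0.66 and -0.82. GCLC was higher by 0.28 and 0.22, and SRXN1 by 0.32 and 0.29. (trans) Retinoic acid had 2 members higher and 4 lower, with 19.2% of genes higher and 21.1% lower. Accutane or Isotretinoin had 2 higher and 6 lower, with 15.6% of genes higher and 21.1% lower.

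The 11 toxic compounds without a call on days 1 to 6, from 2-Imidazolidinethione to Thalidomide, had 99 differences between -0.32 and 0.32 on the log2 scale. Among all pairs of a tested gene and one of these compounds, 5.76% were called. Each non-toxic compound against the other non-toxic compounds gave 0 calls in limma among 144 pairs, where 0.137% of all pairs were called. At an unadjusted p under 0.05 there were 11 pairs, and the differences lay between -0.43 and 0.28.

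With compounds as the units, the toxic class as a whole was not called apart from the non-toxic class in any member. HMOX1 averaged 1.07 ± 2.40 over 28 toxic compounds (SD) and -0.00 over 16 non-toxic ones, with a limma adjusted p = 0.23. The toxic compounds ran from -0.86 to 9.37 in HMOX1, with a median of 0.20, and the non-toxic ones from -0.20 to 0.26. At an unadjusted p under 0.05 there were 4 members: NQO1 (p = 0.0144), SLC7A11 (p = 0.0159), SRXN1 (p = 0.0293) and ME1 (p = 0.0463). Of all genes tested, 0.582% were called between the classes on days 1 to 6 and 17.6% on days 8 to 39. On days 8 to 39 no member was called or had an unadjusted p under 0.05.

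**Figure D3:**
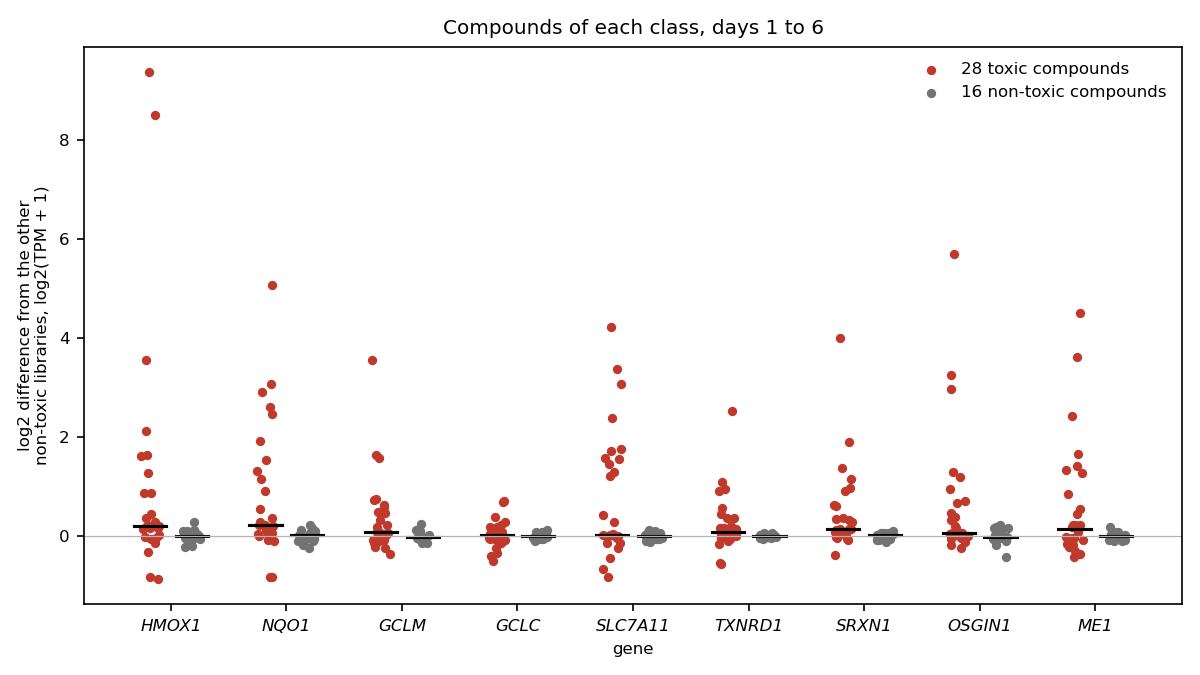
Log2 difference of each gene from same-day non-toxic cultures, averaged over days 1 to 6, with 28 toxic compounds on the left in red and 16 non-toxic compounds on the right in grey. Each point is a compound and each bar a median. In HMOX1 the toxic compounds reach from -0.86 to 9.37 around a median of 0.20. The non-toxic ones, each set against the other non-toxic compounds, stay between -0.21 and 0.28.

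On days 8 to 39, when 21 toxic compounds had libraries enough for a fit, 46 of 189 pairs were called higher and 11 lower. Among all pairs of a tested gene and a compound, 7.11% were higher and 9.45% lower. Without Ibuprofen among the controls 54 pairs were higher and 29 lower, and without days 15 and 21 there were 39 higher and 8 lower. Lead acetate had all 9 members higher (16.1% of genes tested), and 7 members lay above the non-toxic maximum on each of its 6 days (2.95% of genes). GCLC and OSGIN1 were the exceptions, on day 39, when GCLC lay below every non-toxic library. HMOX1 under Lead acetate stood at 63.0, 37.8, 65.4, 103, 123 and 66.8 TPM on days 8, 10, 15, 21, 27 and 39, a log2 difference of 2.66 (SE 0.12, adjusted p = 8.18e-31). NQO1 stood at 139, 86.4, 106, 117, 138 and 105 TPM, a log2 difference of 2.82 (SE 0.13, adjusted p = 1.47e-29). The NQO1 levels under Lead acetate lay above the highest late non-toxic library, which had 44.1 TPM. SLC7A11 averaged 30.1 ± 9.08 TPM under Lead acetate (SD, n = 6), against 4.87 ± 3.56 TPM over the non-toxic day means, a log2 difference of 2.57 (SE 0.15, adjusted p = 3.23e-23).

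K252a had 7 members higher on days 8 to 39, where 17.5% of genes were higher, with SLC7A11 again ahead. SLC7A11 stood at 52.0, 58.8, 46.9, 61.0, 100.3 and 39.4 TPM on the 6 days, a log2 difference of 3.53 (SE 0.13, adjusted p = 3.10e-35). All 6 lay above the non-toxic maximum of their day. HMOX1 under K252a differed by 1.86, ME1 by 1.55 and NQO1 by 1.29. GCLC (0.13, adjusted p = 0.365) and OSGIN1 (0.31, adjusted p = 0.136) were not called. Hydroxyurea had 5 members higher (23.8% of genes), led by NQO1 at 1.51 and SLC7A11 at 1.26. PD166866 had 6 higher (12.7% of genes), led by SLC7A11 at 1.24. U0126 had 6 higher (4.01% of genes), led by OSGIN1 at 1.10, and Dexamethasone 6 (3.45% of genes), led by ME1 at 0.63. Bis-I had 2 higher and 2 lower, where 9.5% of genes were higher and 26.2% lower. Amiodarone had GCLM lower (-0.28), where 15.5% of genes were lower, and Thalidomide had SLC7A11 lower (-0.34), where 6.53% were. On day 21 the length slope was -0.282 in the Amiodarone and -0.289 in the Thalidomide library. The medians over genes with a non-toxic mean of at least 10 TPM lay at -0.389 and -0.47. Without days 15 and 21 these 2 differences were -0.13 and -0.21 and were not called. Another 9 late calls were lost without those days, 4 under Bis-I, 2 each under Dexamethasone and PD166866 and 1 under U0126. The part of transcript length in these values was not tested.

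5-Fluorouracil, with libraries on days 27 and 39 alone, had HMOX1 at 37.3 and 40.0 TPM and SLC7A11 at 30.9 and 29.5 TPM, with no test.

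**Figure D4:**
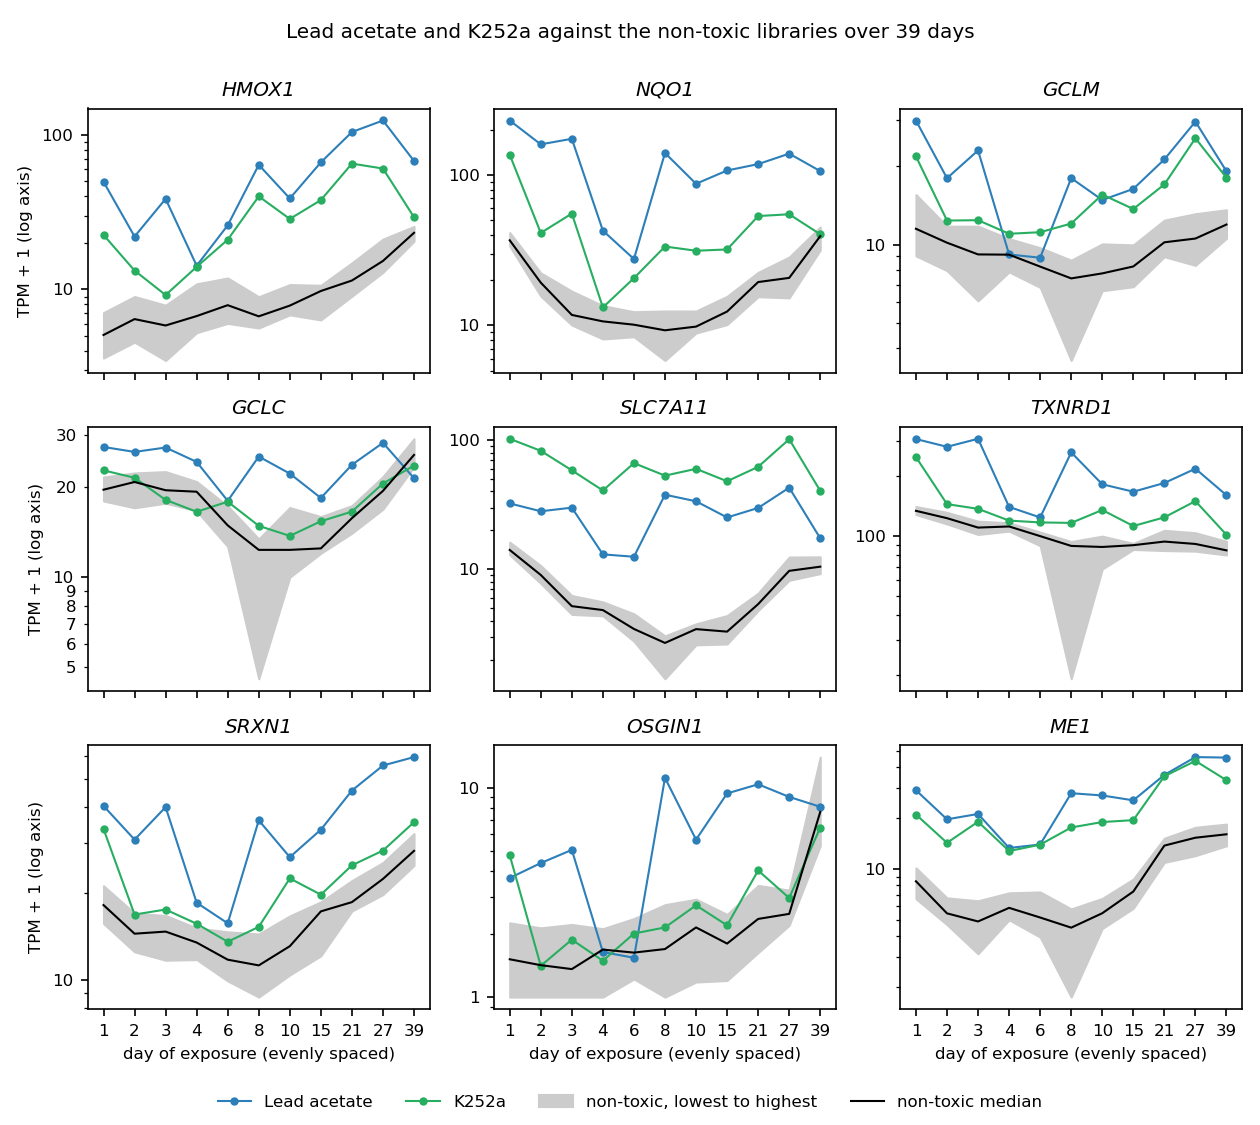
TPM + 1 (log axis) of the 9 genes on 11 days between day 1 and day 39 under Lead acetate and K252a (coloured lines, 1 library per point), with the range of the non-toxic libraries of each day as a grey band, which dips on day 8 with the Ibuprofen library, and their median in black. SLC7A11 under K252a lies above the band on every day, with 39.4 TPM on day 39.

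The retinoids kept a split pattern on days 8 to 39. (trans) Retinoic acid had 3 members higher and 4 lower, where 44.7% of genes were called in either direction, and Accutane or Isotretinoin had 2 higher and 3 lower, where 37.7% were. HMOX1 differed by -0.81 and -0.86, NQO1 by -0.68 and -0.79, SRXN1 by 0.78 and 0.70, and GCLC by 0.63 and 0.57. Tested directly, the late minus the early difference was called in 31 of 189 pairs, 27 of them higher and 4 lower. Among all pairs of a gene and a compound, 7.43% were higher and 6.84% lower. Without Ibuprofen among the controls the count was 47. Lead acetate accounted for 4 of these pairs: SLC7A11 by 0.85, OSGIN1 by 0.82, HMOX1 by 0.54 and SRXN1 by 0.32.

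The non-toxic cultures themselves changed as they matured. On day 10 relative to day 1, HMOX1 was higher by 0.68 and OSGIN1 by 0.39, and the other 7 members were lower, SLC7A11 by -2.11 (SE 0.06, adjusted p = 8.17e-69) and NQO1 by -1.85 (SE 0.07, adjusted p = 2.33e-57). Of genes tested, 35.6% were higher and 40.4% lower. On day 39 relative to day 10, 8 members were higher, where 43.6% of genes were higher, by 0.59 in GCLM to 2.02 in OSGIN1. TXNRD1 was the exception (-0.01, adjusted p = 0.881). HMOX1 averaged 22.2 ± 1.59 TPM on day 39 (SD, n = 14) and 7.16 ± 1.19 TPM on day 10 (SD, n = 15). OSGIN1 averaged 7.32 ± 2.65 TPM on day 39 and 1.03 ± 0.49 TPM on day 10. The astrocyte gene GFAP was at a median of 1.94 TPM on days 1 to 6 and 3657 TPM on day 39, and the part of astrocytes in these changes was not tested.

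Other genes of the pathway were followed as lists, chosen with earlier results of these data known. Of 9 regulators, 9 were higher under Arsenic, 7 under Okadaic acid with 1 lower, 5 under Lead acetate and 5 under Cadmium with 3 lower. Of genes tested, 34.8% were called higher under Arsenic, 35.1% under Okadaic acid, 17% under Lead acetate and 24.6% under Cadmium. Under Cadmium 59.4% were called lower. With libraries centred on their medians 7 regulators were higher and 2 lower under Cadmium. No share over all genes is given here for centred counts. NFE2L2, which encodes NRF2, stood at 101 ± 39.3 TPM under Arsenic (SD, n = 5) and 24.3 ± 3.39 TPM over the non-toxic day means, a log2 difference of 1.95. It differed by 1.45 under Okadaic acid, 0.58 under Lead acetate and 0.24 under Cadmium. KEAP1 was higher by 0.63 under Arsenic, 0.17 under Okadaic acid and 0.30 under Lead acetate, and its difference was -1.21 under Cadmium. MAFF, a small MAF partner of NRF2, rose by 4.47 under Arsenic and 4.09 under Cadmium, and SQSTM1, an autophagy adaptor that binds KEAP1, by 3.76 and 2.05. The median of the 9 regulators was 1.69 under Arsenic and 0.24 under Cadmium, against medians of all genes of -0.11 and -0.40.

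Of 12 further glutathione genes, 9 were higher and 1 lower under Arsenic, and 8 were higher and 2 lower under Okadaic acid. Under Cadmium 4 were higher and 7 lower, where 24.6% of genes tested were higher and 59.4% lower. With libraries centred on their medians 10 were higher and 1 lower under Cadmium. The shares given for the regulators are the background of the other lists in this paragraph too. SLC3A2, the heavy chain that pairs with SLC7A11, rose by 3.78 under both Arsenic and Cadmium, and by 1.93 under K252a. MGST1, a microsomal glutathione transferase, was next under Arsenic at 1.87. Of 11 carbonyl and quinone genes, 11 were higher under Arsenic, 8 under Okadaic acid with 2 lower, 7 under Cadmium with 1 lower and 7 under Lead acetate. EPHX1, an epoxide hydrolase, led under Arsenic at 3.28 with AKR1C3 at 2.87. With centring all 11 were higher under Cadmium. Of 5 heme and iron genes 4 were higher under Arsenic. BLVRB, a biliverdin reductase, rose by 3.32 there, and FTL and FTH1, the ferritin chains that store iron, by 4.62 and 3.28, with FTL at 22450 ± 1611 TPM (SD, n = 5), against 917 ± 116 TPM over the non-toxic day means. Of the 4 thioredoxin genes 3 were higher and 1 lower under Arsenic, led by TXN at 1.48 and PRDX1 at 1.26. Under Cadmium 4 of the 5 heme and iron genes and 1 of the 4 thioredoxin genes were higher, and 4 of 5 and 3 of 4 with centring.

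Genes of other stress pathways moved under the same compounds. All 7 heat shock and all 6 metal response genes were higher under Arsenic, Cadmium and Okadaic acid, and all 6 metal response genes under Lead acetate too. The metallothioneins MT2A and MT1E rose by 9.0 and 8.58 under Arsenic, and MT1G by 13.04 under Cadmium. The inducible chaperones HSPA1A and HSPA1B rose by 5.57 and 5.29 under Arsenic. Of 9 targets of ATF4, a factor that also acts on SLC7A11, 9 were higher under K252a, 8 under 5-Fluorouracil and 7 under PD166866 (6 with centring), with none lower, and the highest under K252a were CHAC1 at 4.08 and ASNS at 2.72. Under Arsenic 8 of the 9 were higher, led by ATF3 at 5.00 and DDIT3 at 4.45. SLC7A11 was the leading member under K252a, 5-Fluorouracil and PD166866, and also under Vincristine, with 5 ATF4 targets higher and 3 lower, and Hydroxyurea, with 6 higher and 1 lower. Without the day 4 library of Vincristine 5 were higher and 1 lower. Of the 11 carbonyl and quinone genes, 3 were higher and 1 lower under K252a, 4 higher and 2 lower under 5-Fluorouracil, 3 higher and 3 lower under Vincristine, 6 higher and 2 lower under Hydroxyurea, and 0 were called either way under PD166866. Under Vincristine 0 were higher and 2 lower without day 4. Of all genes tested, 15.2% were called higher under K252a, 35.5% under 5-Fluorouracil and 33.1% under Vincristine. The share was 29.7% under Hydroxyurea and 12% under PD166866, and these shares are the background of the ATF4 counts too. The share was 34.8% under Arsenic, 35.1% under Okadaic acid, 24.6% under Cadmium and 17% under Lead acetate. Under Busulfan and Cytosine Beta-D-arabinofuranoside it was 29.5% and 40.9%. All 5 p53 targets were higher under 8 compounds, with medians of 3.32 under Cytosine Beta-D-arabinofuranoside, 2.86 under Busulfan, 1.97 under Arsenic, 1.93 under 5-Fluorouracil, 1.83 under Okadaic acid, 1.28 under Vincristine, 1.12 under Hydroxyurea and 0.69 under Lead acetate. GDF15 rose by 8.24 and CDKN1A by 5.18 under Arsenic. Under Cadmium 2 p53 targets were higher and 3 lower, and 4 were higher and 0 lower with centring. The part of ATF4 or p53 in the members' values was not tested.

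Cell type markers moved with several of these compounds. All 6 neural progenitor markers were lower under Arsenic, Cadmium, Okadaic acid, Busulfan and Cytosine Beta-D-arabinofuranoside. Of 16318 genes tested, 7628, 9693, 6499, 5725 and 4443 were called lower under these compounds in that order. With libraries centred on their medians 5 were lower under Okadaic acid, and 5 were lower and FABP7 higher under Cadmium. All 5 neuron markers were lower under Arsenic, Okadaic acid, K252a and Vincristine (4 under K252a with centring). Of the same genes tested, 3181 were called lower under K252a and 6178 under Vincristine. Of 4 astrocyte markers, 4 were higher under 5-Fluorouracil, and 3 were higher and 1 lower under each of Busulfan, Cytosine Beta-D-arabinofuranoside, Vincristine and Hydroxyurea. Without day 4 of Vincristine its 4 astrocyte markers were higher. All 5 mesenchymal markers were higher under Arsenic, Lead acetate, Busulfan, Cytosine Beta-D-arabinofuranoside, K252a, 5-Fluorouracil and Hydroxyurea. Of genes tested, 34.8%, 17%, 29.5%, 40.9%, 15.2%, 35.5% and 29.7% were called higher under these compounds in that order. The share was 24.6% under Cadmium, 35.1% under Okadaic acid and 33.1% under Vincristine. The summed level of the mesenchymal markers was 1833 to 15308 TPM under Arsenic and 926 to 2297 TPM under Lead acetate. In non-toxic cultures it was 237 to 1817 TPM. Under Cadmium, where 8 members were higher, all 5 mesenchymal markers were lower (4 with centring) and summed to between 44.8 and 1002 TPM. Under Okadaic acid none was higher and 3 were lower, at 339 to 1590 TPM. The 3 microglia markers summed to at most 3.06 TPM under Arsenic, Cadmium, Okadaic acid and Lead acetate. Epithelial markers were 3 of 3 higher under Arsenic, Cadmium, Okadaic acid and Cytosine Beta-D-arabinofuranoside. With centring 2 epithelial markers were higher under Cytosine Beta-D-arabinofuranoside, and 3 under Busulfan. Pluripotent markers were 2 of 2 higher under Arsenic and Cadmium, at no more than 5.29 TPM, and under Vincristine, where 0 were higher without day 4. The part of these cell types in the members' values was not tested.

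Across the 28 compounds the members' differences ran together, except in GCLC. Pearson's r between pairs of the 8 other members was 0.78 to 0.97 (28 pairs, median 0.87), and 0.62 to 0.94 without Cadmium and Arsenic. Between GCLC and each of the others it was 0.19 to 0.53 (8 pairs, median 0.36). The compounds share their non-toxic controls, so these are descriptions with no test. Outside the set, the 5 genes most like the mean of the members over the 28 compounds, among 13950 candidates, were FTL, SQSTM1, the co-chaperone DNAJB4, the superoxide dismutase SOD1 and ZFP36, which binds messenger RNA. Each had r = 0.97, and r was 0.93, 0.90, 0.89, 0.91 and 0.93 in that order without Cadmium and Arsenic. Ranked without those 2 compounds, FTL was 3rd and ZFP36 5th, and SOD1 was 18th, SQSTM1 32nd and DNAJB4 61st. Their differences under Arsenic were 4.62 in FTL, 3.76 in SQSTM1, 1.96 in DNAJB4, 1.72 in SOD1 and 3.95 in ZFP36.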

How the data were processed

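RNA-seq libraries of H1-NPC cultures were made from column-purified RNA of single wells with a TruSeq kit, per the labels' protocols. The deposited table holds TPM values per gene, and the submitters' processing notes name CASAVA 1.8.2, RSEM 1.2.1, Bowtie 0.12.8 and build hg19. The columns of TPM have the same sum by construction, so sequencing depth is unknown, and no interval that needs it is given. No 2 libraries were identical. A gene was kept when 5 or more libraries had it at 1 TPM or above (16318 of 19084), and log2(TPM + 1) was fitted with limma 3.58.1 in R 4.3.3, with an intensity trend, day as a factor and Benjamini-Hochberg adjustment over all genes tested in each comparison. The compound entered as a random block, at a correlation of 0.0212 estimated in non-toxic libraries. Fold changes on this scale understate changes of genes at low levels. Nothing states whether the wells of 1 compound on different days were independent cultures. The scripts were tested on simulated data. All 9 members were named by rule, and, for each list in the text, the 2 largest differences under Arsenic and the ATF4 list's under K252a. NFE2L2, KEAP1, FTH1, and MT1G under Cadmium were named after their values were seen. A list of NADPH genes is not reported here. The members and lists were chosen with earlier results of these data known. Alternatives were a pseudocount of 0.1 TPM, no filter on low values, libraries centred on their medians, no block, days left out, and controls or libraries that stood apart left out. Promoters came from RefSeq on GRCh38.p14 and were not used with the hg19 values. Python 3.11.15 with pandas 2.3.3 and numpy 2.4.6 made the tables.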

Additional observations from a re-analysis of the deposited data

Results flagged for a closer look

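In 179 groups of a called member under 1 compound and window, 17 had a single day far from the other days by Dixon's criterion, where chance gives about 1 in 20 groups. Values are log2 differences from same-day non-toxic cultures. On day 1 of Monosodium glutamate, TXNRD1 was at -2.92, SLC7A11 at -2.39, GCLC at -2.29, SRXN1 at -1.99 and GCLM at -1.67, and the other days lay between -0.25 and 0.25. On day 4 of Vincristine, TXNRD1 was at -3.39, with the other days between -0.13 and 0.83. On day 1 of K252a, TXNRD1 was at 0.90 and SRXN1 at 0.87, above its other days. Busulfan had TXNRD1 at 0.44 on day 1, below its other days, which began at 0.58. Hydroxyurea had NQO1 at 1.81 on day 3, and 5-Fluorouracil had GCLM at 1.01 on day 6, both above their other days. On days 8 to 39, SRXN1 under K252a was at 0.75 on day 10, above its other days. The remaining 5 were on day 39 and below the other days: HMOX1 at 0.34 and NQO1 at 0.060 under K252a, NQO1 at 0.059 under Hydroxyurea, and HMOX1 at -0.41 and NQO1 at -0.10 under U0126.

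In 31 pairs the difference on days 8 to 39 minus that on days 1 to 6 passed a limma adjusted p of 0.05, tested directly. Under (trans) Retinoic acid it was 0.70 in ME1, 0.46 in SRXN1, 0.35 in GCLC, 0.35 in SLC7A11 and -0.43 in GCLM. Under Accutane or Isotretinoin it was 0.61 in ME1, 0.45 in SLC7A11, 0.41 in SRXN1 and 0.35 in GCLC. Under Monosodium glutamate it was 0.69 in TXNRD1, 0.57 in ME1, 0.50 in GCLC, 0.50 in SLC7A11 and 0.49 in GCLM, and none of the 5 was called without the day 1 library. Under U0126 it was 0.90 in OSGIN1, 0.54 in NQO1, 0.49 in SLC7A11, 0.46 in GCLM and 0.43 in SRXN1. Lead acetate had 0.85 in SLC7A11, 0.82 in OSGIN1, 0.54 in HMOX1 and 0.32 in SRXN1. K252a had 0.59 in HMOX1 and 0.37 in GCLM, and Hydroxyurea had 0.53 in ME1 and 0.48 in HMOX1. PD166866 had 0.32 in SRXN1 and -0.35 in SLC7A11. Thalidomide had -0.35 in SLC7A11, and Bis-I had -0.32 in GCLC.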

How the results depend on the processing

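The counts of member calls on days 1 to 6 (122) and on days 8 to 39 (57) stayed within 1.5 times under each alternative. With no replicate block (the compound as a random effect) the late count was 60, and without Ibuprofen among the controls the counts were 121 and 83. Member slopes (77) were 45 to 77 when single days were left out, with the lowest count without day 1. Member differences between the windows (31) were 47 without Ibuprofen among the controls and 23 to 50 when single days were left out, with the highest count without day 8. The 205 single results, all of them called in the main fits, had 2362 alternative values. Of these values 2251 kept direction and side of the threshold, 102 kept direction and lost the call, and 9 reversed. Calls gained under an alternative are not in this tally. GCLC under Cadmium was 0.26 with libraries centred on their medians. That median is taken over genes with a non-toxic mean of at least 10 TPM, and their median difference under Cadmium was -0.68. TXNRD1 under Vincristine was 0.17 without the 2 libraries that stand apart, and ran from -0.88 to 0.17 when single days were left out. Under Monosodium glutamate, SLC7A11 was 0.041, SRXN1 0.032 and TXNRD1 0.0302 without the 2 libraries. When single days were left out they ran from -0.61 to 0.041 in SLC7A11, from -0.53 to 0.0319 in SRXN1 and from -0.74 to 0.0302 in TXNRD1, and the highest value in each was without day 1. The alternative without those 2 libraries was chosen after seeing the data. Depth is unknown, and OSGIN1 reached 1 TPM in 56 non-toxic libraries, which limits its values at rest.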
